A study of Oryza sativa with 16 samples.

Results

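The calcineurin B-like (CBL) calcium sensors and the CBL-interacting protein kinases (CIPK) of rice were taken as every gene whose symbol or alias is CBL or CIPK followed by a number, with or without the prefix Os. The gene table held 39 such genes, 9 CBL and 30 CIPK, and 31 of them had a probe set on the array, out of 17905 genes measured in all. These were 7 CBL genes (CBL2, CBL3, CBL4, CBL5, CBL6, CBL9 and CBL10) and 24 CIPK genes, covered by 42 probe sets. CBL1, CBL7, CIPK3, CIPK9, CIPK13, CIPK15, CIPK27 and CIPK33 had no probe set assigned to them and were not analysed here. Each gene was read through its probe set with the highest mean over the 16 arrays.

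CBL proteins bind calcium through EF-hand motifs and, when calcium rises in the cell, dock onto CIPK kinases through a short regulatory motif of the kinase known as NAF. Docking relieves the self-inhibition of the kinase and places the pair at the plasma membrane or the vacuolar membrane, where it phosphorylates ion channels and transporters. In plants the network is best known for tolerance of salt, uptake of potassium and nitrate, and responses to drought, cold and low oxygen. CIPK kinases belong to the wider SnRK family, with SnRK1 kinases of energy signalling and SnRK2 kinases of abscisic acid signalling as relatives.

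The 4 groups, with 4 arrays each, were a bulk of 6 strongly aromatic recombinant inbred lines, a bulk of 6 strongly non-aromatic lines of the same cross, the aromatic parent Pusa 1121 and the non-aromatic parent Pusa 1342. All plants were grown untreated in the field, and leaves were taken 25 days after transplanting. Each bulk is a pool of lines picked for their aroma score, so it gives the average of its lines and not their spread, and the 2 parents differ across their whole genomes. The labels call the arrays of a group biological replicates without saying whether they came from separate plants, so the tests reflect only how far these arrays spread.

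Values were array intensities whose distribution the authors had made equal on every array, with a median of 64.2 and a highest value of 45123. Within groups the mean correlation between arrays was 0.917 to 0.930, and the highest correlation between arrays of different groups was 0.906. Of 4 measured leaf markers, all photosynthesis genes, rca, rbcS and CAB2R had group means of 22591 or more, while RBCS1 was dim, at 30.6 to 48.8. Between the bulks 0 of the 4 passed in limma (0 at an unadjusted p under 0.05 as well), against 32.8% of all genes. Between the parents rca and rbcS passed, with log2 differences of -0.42 and 0.44, against 45.3% of all genes. CAB2R had group means of 43360 to 44835, close to the highest value on the arrays, and RBCS1 was dim. Neither had much room to show a difference, so these markers do not establish that leaf content was alike. Differences are given on the log2(intensity + 1) scale with limma p-values adjusted over all 57194 probe sets, and a gene is said to have risen or fallen where the adjusted p was under 0.05. Levels of different genes were not compared, since probe sets differ in brightness for the same amount of RNA. Less RNA per cell and fewer cells of a type cannot be told apart in whole leaves. Probe sets of the same gene did not always agree. The kinases that passed between the parents had 7 further probe sets. Of these 3 passed in the same direction, 1 passed in the opposite one and 3 did not pass. Genes with 1 probe set could not be checked in this way.

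Among the 7 measured calcium sensors CBL10 alone passed between the bulks, and it was higher in the aromatic bulk. Between the parents CBL2 and CBL4 fell in Pusa 1121, and the other 5 did not pass. Over all genes 32.8% passed between the bulks and 45.3% between the parents, against 14.3% and 28.6% of the CBL genes, which with 7 genes means 1 and 2 genes. The median log2 difference of the CBL genes was -0.17 between the bulks and -0.19 between the parents, and that of all genes was -0.01 in both comparisons. Their median absolute difference was 0.39 between the bulks and 0.33 between the parents, against 0.33 and 0.43 over all genes. At an unadjusted p under 0.05, 4 of the 7 sensors passed between the bulks and 3 between the parents, against 8146 and 9705 of all 17905 genes.

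CBL4 is the rice counterpart of Arabidopsis SOS3, the sensor that works with CIPK24 in exporting sodium. Its intensities were 646, 617, 720 and 720 in the aromatic bulk and 629, 591, 492 and 547 in the non-aromatic bulk. They were 267, 206, 238 and 274 in Pusa 1121 and 496, 433, 394 and 416 in Pusa 1342. The bulks overlapped, while all Pusa 1121 arrays lay below every other array. CBL4 was 1.77-fold lower in Pusa 1121 than in Pusa 1342 (log2 difference -0.82 ± 0.116 SE, adjusted p = 8.72e-05). Between the bulks the log2 difference was 0.26, with a 95% interval of 0.01 to 0.51 (adjusted p = 0.156), and the parental difference minus the bulk difference was -1.08 (adjusted p = 0.000282).

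CBL2, whose Arabidopsis counterpart sits at the vacuolar membrane, read 493, 508, 514 and 551 in the aromatic bulk and 409, 420, 327 and 377 in the non-aromatic bulk. It read 200, 362, 389 and 382 in Pusa 1121 and 638, 615, 540 and 495 in Pusa 1342. Neither pair of groups overlapped, and the pairs pointed in opposite directions. CBL2 was 1.76-fold lower in Pusa 1121 (log2 difference -0.82 ± 0.184 SE, adjusted p = 0.00386). The bulk difference of 0.43 did not pass (adjusted p = 0.133), and the difference between both contrasts was -1.25 (adjusted p = 0.00323). Pusa 1121 replicate 1 was far below the other arrays of its group, and leaving it out brought the bulk comparison to an adjusted p of 0.0111 with the same log2 difference. The bulk comparison also passed when the bulks were fitted alone (adjusted p = 0.04). Over the 23 alternative runs other than the 2-fold minimum, the parental log2 difference ranged from -0.91 to -0.59. It passed in each, with adjusted p-values up to 0.0438 in limma. The difference between both contrasts ranged from -1.34 to -1.03.

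CBL10, whose Arabidopsis counterpart partners the CIPK24 counterpart in protecting shoots from salt, read 661, 476, 443 and 452 in the aromatic bulk and 424, 380, 361 and 289 in the non-aromatic bulk. Its parental values were 419, 406, 422 and 498 in Pusa 1121 and 525, 555, 589 and 524 in Pusa 1342. The bulks did not overlap, but the lowest aromatic array lay only slightly above the highest non-aromatic one. CBL10 was 1.39-fold higher in the aromatic bulk (log2 difference 0.48 ± 0.143 SE, adjusted p = 0.0323), and between the parents the log2 difference was -0.33 (adjusted p = 0.116). The parental difference minus the bulk difference was -0.81 (adjusted p = 0.0109). The bulk call was lost without aromatic bulk replicate 1 or 2, or without non-aromatic bulk replicate 3 or 4, with adjusted p-values of 0.0873, 0.0517, 0.0622 and 0.0947. It was also lost when the bulks were fitted alone (adjusted p = 0.142).

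The other 4 sensors did not pass in either comparison in the main fit. CBL3 and CBL6 passed as lower in the aromatic bulk with brighter probe sets, averaged probe sets, or trend and robust settings. Their log2 differences there were -0.23 and -0.17, with limma adjusted p-values of 0.0237 to 0.0353 and 0.0356 to 0.0486. CBL3 also passed without aromatic bulk replicate 4 (adjusted p = 0.0412). CBL3 averaged 1852 ± 209 in the aromatic bulk and 2162 ± 146 in the non-aromatic bulk, and 2298 ± 102 in Pusa 1121 and 2123 ± 140 in Pusa 1342 (SD, n = 4 each). CBL6 averaged 2861 ± 180 in the aromatic bulk and 3212 ± 229 in the non-aromatic bulk, and 3442 ± 192 in Pusa 1121 and 3351 ± 110 in Pusa 1342. For both genes the 95% interval of the log2 difference was narrow, from -0.43 to -0.03 for CBL3 and from -0.34 to 0.00 for CBL6 between the bulks, and from -0.09 to 0.32 and from -0.13 to 0.21 between the parents. CBL5 and CBL9 were dim, with group means of 36.4 to 106 and 67.3 to 99.0, and their intervals were wide, from -1.88 to 0.44 for CBL5 between the bulks and from -0.14 to 2.18 between the parents. CBL9 was read through probes partly shared with other sequences, and the locus read here as CBL5 also carries the alias CBL2.

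**Figure D1:**
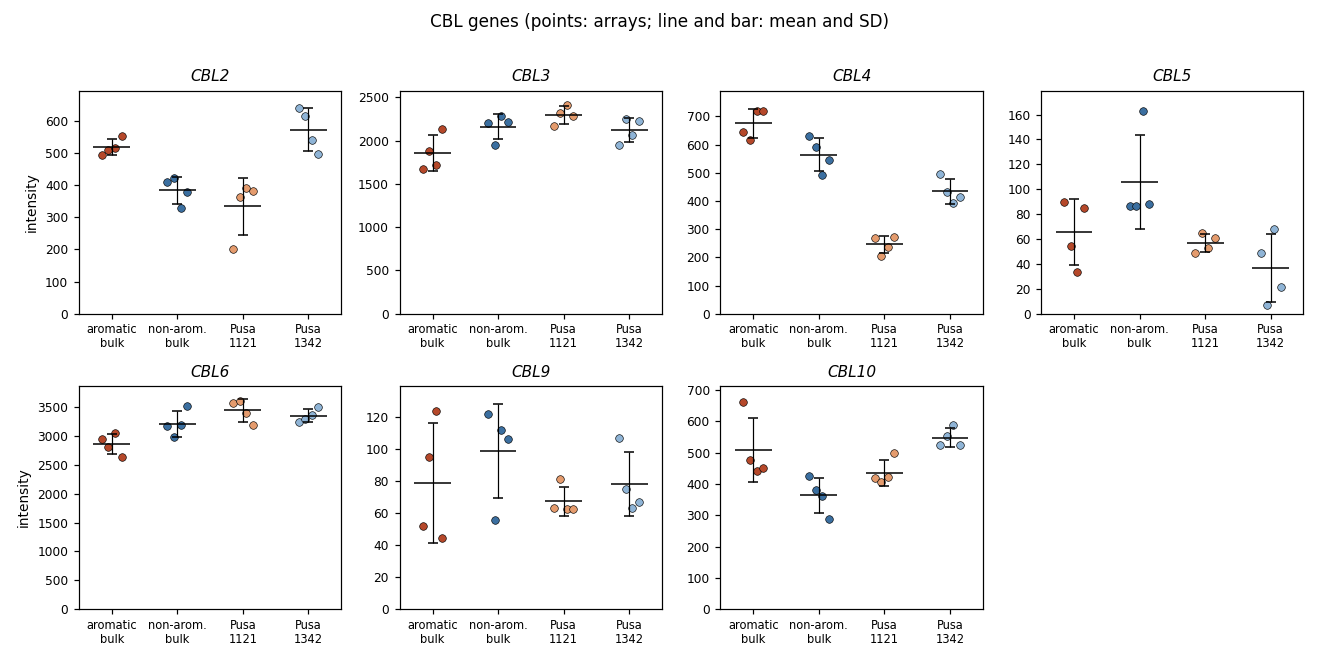
Intensities of the 7 CBL genes (linear axes starting at 0) on the 16 arrays, with the aromatic bulk left of the non-aromatic bulk and Pusa 1121 left of Pusa 1342; points are arrays, lines and bars the mean and SD. CBL4 is at 206 to 274 in Pusa 1121, below every other array, and the CBL10 arrays of the bulks lie close without overlapping.

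The kinases passed more often than the sensors in the bulk and the parental comparison. Between the bulks 12 of the 24 measured CIPK genes passed (50%, against 32.8% of all genes), 4 higher and 8 lower in the aromatic bulk, against 16.5% and 16.3% of all genes. Between the parents 14 passed (58.3%, against 45.3%), 2 higher and 12 lower in Pusa 1121, where 22.4% of all genes were higher and 22.8% lower. All measured CIPK genes except CIPK30 were at or above the median brightness, and among genes at or above it 39.1% passed between the bulks and 53.9% between the parents. The share of CIPK genes that passed in any direction between the parents was thus near that of genes of this brightness.

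Sizes leaned the same way. The median log2 difference of the 24 kinases was -0.16 between the bulks and -0.26 between the parents, and the median absolute difference was 0.53 and 0.59, against 0.33 and 0.43 over all genes. At least 2-fold differences were found for 3 kinases between the bulks (6.87% of all genes) and 8 between the parents (15.8%). Arrays of the bulks did not overlap for 15 of the 24 kinases, 6 higher and 9 lower in the aromatic bulk, against 41.4% of all genes. Those of the parents did not overlap for 13 of the 24, 2 higher and 11 lower in Pusa 1121. That share was near the 51.7% of all genes. Whether kinases and sensors differ in these shares was not tested.

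**Figure D2:**
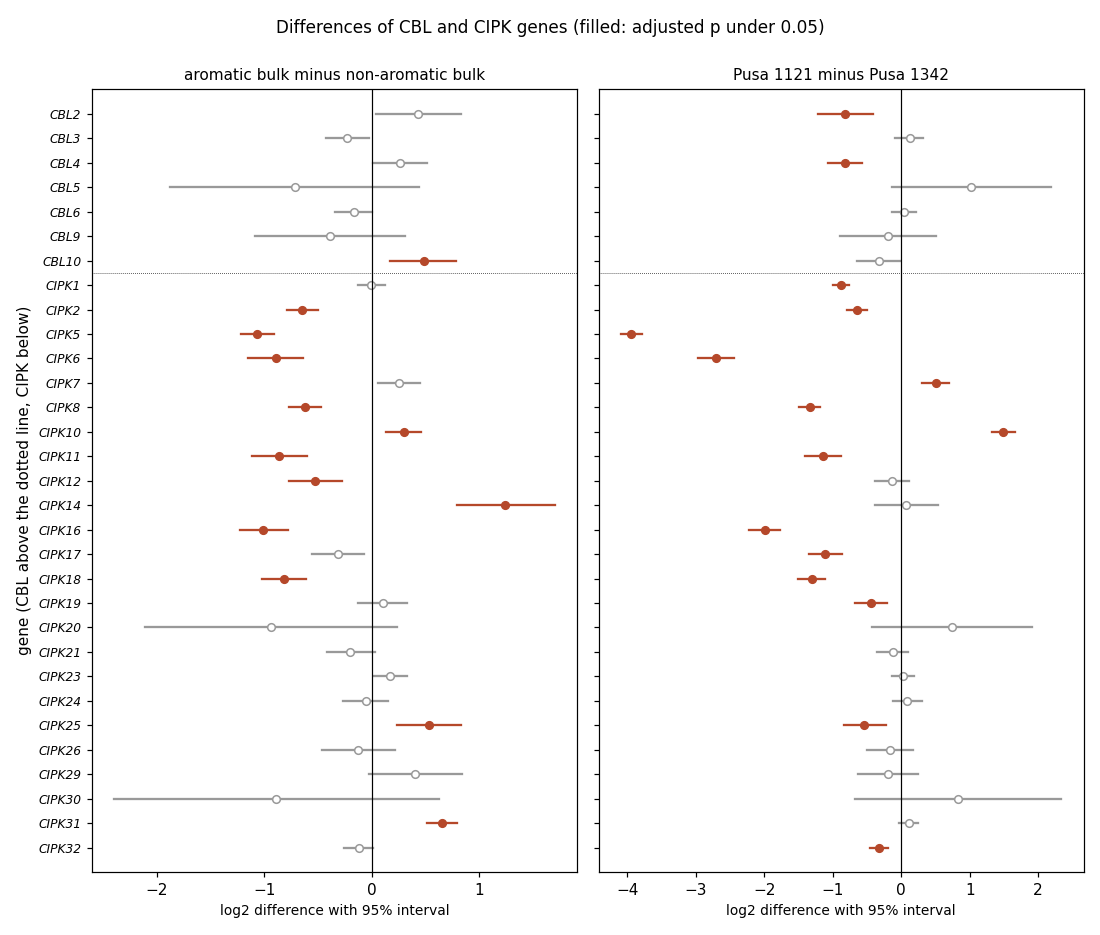
Log2 differences with 95% intervals for the 7 CBL and 24 CIPK genes, for the aromatic minus the non-aromatic bulk and for Pusa 1121 minus Pusa 1342, on axes of different length; filled points have an adjusted p under 0.05. Most filled CIPK points lie below 0, 8 of 12 between the bulks and 12 of 14 between the parents.

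Of the 24 kinases 7 were lower on the aromatic side in the bulks and again in the parents, CIPK2, CIPK5, CIPK6, CIPK8, CIPK11, CIPK16 and CIPK18. That is 29.2% of the kinases, against 8.34% of all genes, and 0 of the 7 CBL genes did so. CIPK10 was the only kinase higher on the aromatic side in both (8.09% of all genes), and CIPK25 passed with opposite directions (5.02%). All Pusa 1121 arrays lay below the 12 others for CIPK1, CIPK5, CIPK6, CIPK8, CIPK16, CIPK18 and CBL4 (9.56% of all genes), and above them for CIPK10 (10.5%). The bulk and parental comparisons set different arrays against each other, but they are not independent. They come from the same fit with a shared estimate of the spread, and the lines of the bulks descend from these parents.

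CIPK5 had the largest parental log2 difference of the 31 genes. Its intensities were 1734, 1717, 1806 and 1894 in the aromatic bulk and 3786, 3745, 3687 and 3746 in the non-aromatic bulk. They were 474, 477, 455 and 534 in Pusa 1121 and 7766, 7400, 7240 and 7485 in Pusa 1342. No groups overlapped, and the 4 groups stood in the order Pusa 1121, aromatic bulk, non-aromatic bulk, Pusa 1342 from low to high. CIPK5 was 2.09-fold lower in the aromatic bulk (log2 difference -1.07 ± 0.0701 SE, adjusted p = 1.88e-07) and 15.4-fold lower in Pusa 1121 (-3.95 ± 0.0701 SE, adjusted p = 2.47e-13). The parental minus the bulk difference was -2.88 (adjusted p = 3.77e-10). CIPK5 had 1 probe set, so these differences could not be checked on another. In the gene table CIPK5 lies on chromosome 1 with 1 protein-coding gene between it and CIPK13, which had no probe set of its own.

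CIPK6 read 957, 1013, 1010 and 1006 in the aromatic bulk and 1917, 1773, 1885 and 1833 in the non-aromatic bulk. In the parents it read 251, 262, 255 and 387 in Pusa 1121 and 1813, 1914, 1930 and 1801 in Pusa 1342. The non-aromatic bulk and Pusa 1342 covered the same range, the aromatic bulk was below both, and Pusa 1121 was lowest. The gene was 1.86-fold lower in the aromatic bulk (log2 difference -0.89, adjusted p = 0.000101) and 6.54-fold lower in Pusa 1121 (-2.71, adjusted p = 7.26e-10), and the parental minus the bulk difference was -1.82 (adjusted p = 3.07e-06).

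CIPK16 read 288, 341, 255 and 308 in the aromatic bulk and 558, 702, 581 and 556 in the non-aromatic bulk. It read 174, 163, 181 and 160 in Pusa 1121 and 692, 627, 682 and 713 in Pusa 1342. Each aromatic group lay wholly below its non-aromatic counterpart. The fall was 2.01-fold in the aromatic bulk (log2 difference -1.01, adjusted p = 1.2e-05) and 3.98-fold in Pusa 1121 (-1.99, adjusted p = 4.57e-09), with a difference between the contrasts of -0.99 (adjusted p = 0.00025). Its probe set shares some probes with other sequences, and CIPK27, which neighbours CIPK16 on chromosome 9, had no probe set of its own.

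CIPK8 read 1307, 1265, 1263 and 1163 in the aromatic bulk and 1846, 1997, 1917 and 1922 in the non-aromatic bulk. It read 849, 808, 845 and 833 in Pusa 1121 and 2170, 2154, 2214 and 1920 in Pusa 1342. The aromatic bulk lay between Pusa 1121 and all the non-aromatic arrays. CIPK8 fell 1.54-fold in the aromatic bulk (adjusted p = 2.76e-05) and 2.53-fold in Pusa 1121 (adjusted p = 4.96e-09). CIPK18, which also carries the alias CIPK22, read 1055, 1051, 899 and 859 in the aromatic bulk and 1702, 1838, 1568 and 1687 in the non-aromatic bulk. In the parents it read 640, 684, 594 and 553 in Pusa 1121 and 1513, 1498, 1539 and 1560 in Pusa 1342. Its 4 groups had the same order as those of CIPK8, except that the non-aromatic bulk lay above Pusa 1342. CIPK18 fell 1.76-fold in the aromatic bulk (adjusted p = 2.98e-05) and 2.48-fold in Pusa 1121 (adjusted p = 1.11e-07). The parental minus the bulk difference was -0.72 for CIPK8 (adjusted p = 0.000136) and -0.49 for CIPK18 (adjusted p = 0.0181).

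CIPK11 and CIPK2 differed by similar amounts in both comparisons. CIPK11 averaged 254 ± 39.9 in the aromatic bulk and 458 ± 33.3 in the non-aromatic bulk, and 215 ± 27.7 in Pusa 1121 and 471 ± 21.0 in Pusa 1342 (SD, n = 4 each). The difference between its contrasts was -0.28, with a 95% interval of -0.64 to 0.08 (adjusted p = 0.322). All its probes match several transcripts, so its signal may include a relative. CIPK2 read 4477, 4667, 4369 and 4513 in the aromatic bulk, 7493, 6874, 7028 and 6831 in the non-aromatic bulk, 6447, 6333, 5995 and 5745 in Pusa 1121 and 10112, 9196, 9572 and 9607 in Pusa 1342. It was 1.57-fold lower on the aromatic side in both comparisons (adjusted p = 1.43e-05 in the bulks and 5.19e-06 in the parents), and the contrasts differed by 0.00 with an interval of -0.21 to 0.21. Each CIPK2 bulk lay below its own parent, and the aromatic bulk below all other arrays. This probe set shares some probes with other sequences. The other CIPK2 probe sets differed by -0.39 and 0.90 between the bulks (adjusted p = 0.0457 and 0.405) and by 0.16 and -0.23 between the parents (adjusted p = 0.426 and 0.863). When probe sets were averaged per gene, CIPK2 passed in neither comparison, with log2 differences of -0.05 and -0.24.

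**Figure D3:**
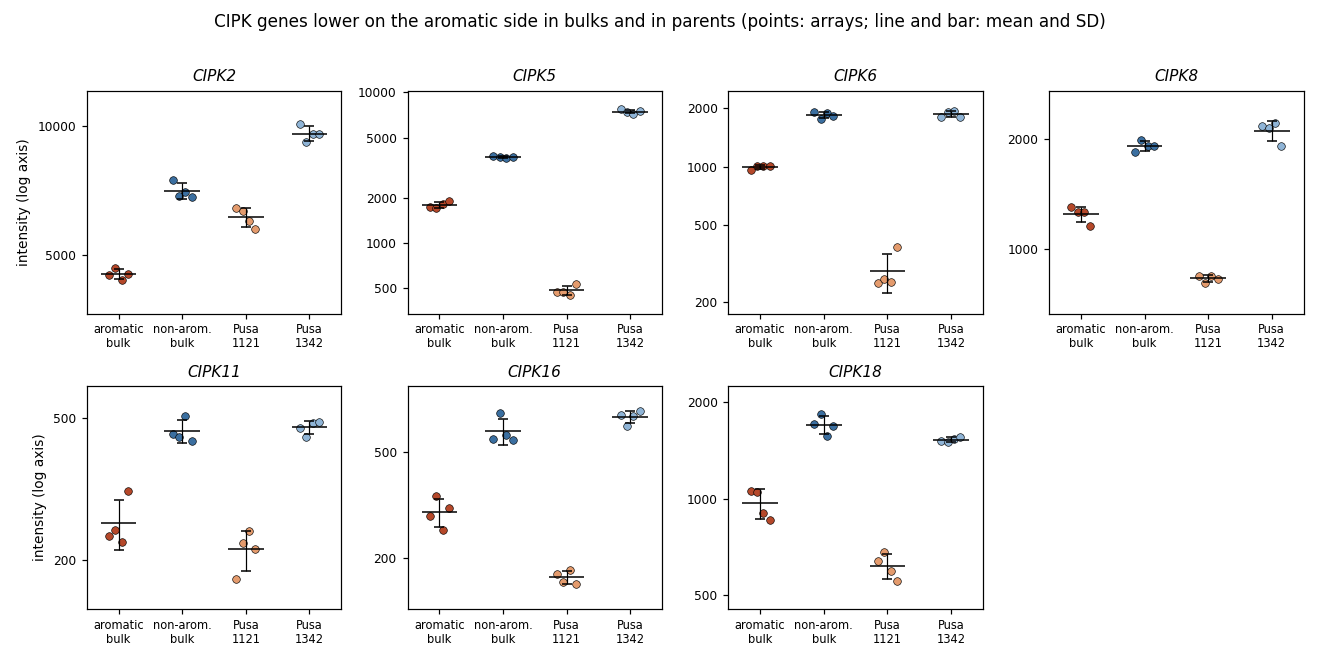
Intensities (log axes) on the 16 arrays of the 7 CIPK genes lower in the aromatic bulk than in the non-aromatic bulk and lower in Pusa 1121 than in Pusa 1342; points are arrays, lines and bars the mean and SD. CIPK5 has the widest range, from 455 in Pusa 1121 to 7766 in Pusa 1342, with the bulks in between.

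Summed markers of floral and root tissue were lower on the aromatic side, like these 7 kinases, and those of seed were not. The summed intensity of 12 of 13 floral and meristem markers was 4833 to 5120 in the aromatic bulk and 6689 to 7541 in the non-aromatic bulk, and 4916 to 5470 in Pusa 1121 and 9958 to 10763 in Pusa 1342. That of 6 of 7 root markers was 5059 to 5630 in the aromatic bulk and 6611 to 7691 in the non-aromatic bulk, and 3216 to 3320 in Pusa 1121 and 9533 to 10099 in Pusa 1342. The sum of 6 of 6 seed markers was 5443 to 6223 in the aromatic bulk and 4018 to 4480 in the non-aromatic bulk, and 5717 to 6069 in Pusa 1121 and 4976 to 6112 in Pusa 1342. No marker was listed at 0. Between 6 and 7 of the floral markers in each group had a mean under the median brightness of 62.4. So had 1 to 3 of the root markers and 3 of the seed markers. The floral and root sums came mostly from MADS2 on chromosome 7, MADS16, Lsi6 and Lsi1, of which Lsi6 is also known from leaves. Another locus named MADS2, on chromosome 1, was dimmer. It differed by 0.51 between the bulks (adjusted p = 0.57) and by -2.88 between the parents (adjusted p = 0.000462). Of the floral markers 2 of 12 fell in the aromatic bulk and of the root markers 1 of 6, both 16.7%, against 16.3% of all genes. In Pusa 1121, 4 of 12 floral and 2 of 6 root markers fell, both 33.3%, against 22.8% of all genes. Of the seed markers Sbe1 rose in the aromatic bulk and WX1 in Pusa 1121, and none of the 6 fell in either. Their part in the result was not tested.

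CIPK10 was the kinase that rose on the aromatic side in both comparisons. It read 3514, 3285, 3023 and 3251 in the aromatic bulk and 2715, 2669, 2572 and 2669 in the non-aromatic bulk. It read 7848, 7562, 7831 and 7511 in Pusa 1121 and 2884, 2979, 2561 and 2524 in Pusa 1342. Pusa 1121 stood above all other arrays, and on this probe set the bulks lay close to each other near Pusa 1342. On 2 of the other probe sets all arrays of both bulks were below all parental arrays. There the non-aromatic bulk differed from Pusa 1342 by -0.89 and -1.31 on the log2 scale (adjusted p = 3.45e-07 and 4.28e-08). With all CIPK10 probe sets averaged, the non-aromatic bulk was also below Pusa 1342, with -0.56 (adjusted p = 4.78e-06). CIPK10 was 1.23-fold higher in the aromatic bulk (log2 difference 0.30 ± 0.0769 SE, adjusted p = 0.0146) and 2.82-fold higher in Pusa 1121 (1.49 ± 0.0769 SE, adjusted p = 3.73e-09), the parental difference being larger by 1.20 (adjusted p = 2.7e-06). All 4 of its probe sets were higher in Pusa 1121, the other 3 by 1.27, 0.84 and 1.56, and each passed. Between the bulks the others differed by 0.50, 0.23 and 0.38, of which 0.50 passed, and the call on the brightest probe set was lost when the bulks were fitted alone (adjusted p = 0.0615).

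CIPK14 and CIPK31 rose in the aromatic bulk without passing between the parents. CIPK14, together with its near-identical copy CIPK15, is known from defence responses of cultured rice cells, and CIPK15 from signalling under low oxygen. Since CIPK15 had no probe set of its own, its RNA may add to the CIPK14 signal. CIPK14 read 3738, 5650, 3188 and 3506 in the aromatic bulk and 1603, 1399, 1812 and 1840 in the non-aromatic bulk, against 1326, 1190, 1275 and 1328 in Pusa 1121 and 1627, 1494, 1008 and 886 in Pusa 1342. All aromatic bulk arrays were above the 12 others (5.17% of all genes), while those of the parents overlapped. The rise in the aromatic bulk was 2.37-fold (log2 difference 1.24 ± 0.209 SE, adjusted p = 0.000721), the parental difference was 0.07 with an interval of -0.38 to 0.53, and the contrasts differed by -1.17 (adjusted p = 0.0117).

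CIPK31, studied in rice for the response of germination and seedlings to stress, read 11617, 11706, 11372 and 11210 in the aromatic bulk and 7211, 7174, 7413 and 7407 in the non-aromatic bulk. It read 7562, 8403, 8457 and 8750 in Pusa 1121 and 7819, 7743, 7612 and 7534 in Pusa 1342. The aromatic bulk again stood above all 12 other arrays. The rise was 1.57-fold (log2 difference 0.65 ± 0.0654 SE, adjusted p = 8.55e-06), against a parental difference of 0.11 (interval -0.03 to 0.25, adjusted p = 0.282), and the contrasts differed by -0.54 (adjusted p = 0.000716). A second probe set of the gene was also higher in the aromatic bulk, by 0.57 (adjusted p = 0.0346). The locus carries CIPK3 as a further alias.

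CIPK25 was above both parents in both bulks, which held for 4.55% of all genes. It read 7123, 7498, 6738 and 7311 in the aromatic bulk and 4865, 5022, 4869 and 5091 in the non-aromatic bulk, against 2265, 2258, 1799 and 3081 in Pusa 1121 and 3761, 3702, 2835 and 3180 in Pusa 1342. The parental arrays overlapped. CIPK25 was 1.44-fold higher in the aromatic bulk (log2 difference 0.53, adjusted p = 0.0166) and 1.45-fold lower in Pusa 1121 (-0.54, adjusted p = 0.0106), and the contrasts differed by -1.07 (adjusted p = 0.00142). The parental call was lost when the parents were fitted alone (adjusted p = 0.0824).

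CIPK12, which raised drought tolerance when overexpressed in rice, fell in the aromatic bulk. It read 238, 359, 315 and 295 in the aromatic bulk and 467, 436, 412 and 410 in the non-aromatic bulk, and averaged 511 ± 39.0 in Pusa 1121 and 561 ± 30.7 in Pusa 1342 (SD, n = 4 each). The aromatic bulk was below all 12 other arrays, as for CIPK2 and CIPK32 (4.1% of all genes). The fall was 1.44-fold (log2 difference -0.53 ± 0.115 SE, adjusted p = 0.0049), and it was not past the threshold with the bulks fitted alone (adjusted p = 0.0504) or with probe sets averaged (adjusted p = 0.115). A dimmer probe set of the gene differed by -0.07 between the bulks. CIPK12 lies next to CIPK30, a gene at a mean intensity of 13.7 over all arrays, on chromosome 1.

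**Figure D4:**
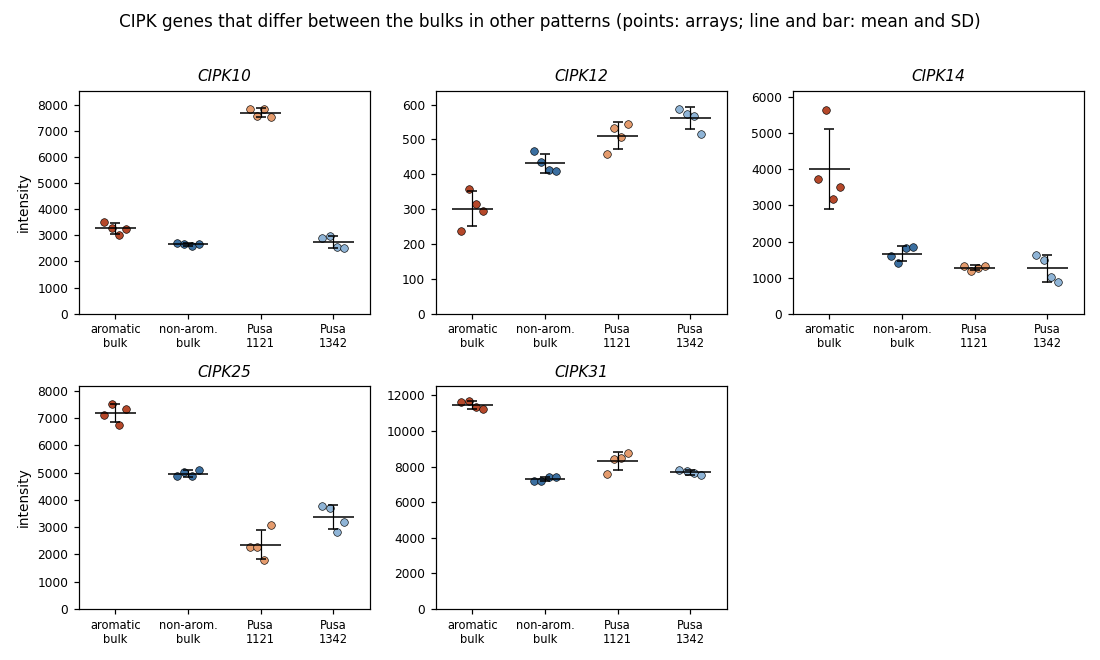
Intensities (linear axes starting at 0) on the 16 arrays of the CIPK genes that differed between the bulks in another pattern; points are arrays, lines and bars the mean and SD. CIPK14, CIPK25 and CIPK31 are highest in the aromatic bulk, CIPK12 is lowest there, and CIPK10 is highest in Pusa 1121.

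A further 5 kinases passed between the parents and not between the bulks. CIPK1 read 11746, 11794, 11520 and 11831 in Pusa 1121 and 21085, 22125, 21202 and 21905 in Pusa 1342, a 1.84-fold fall (log2 difference -0.88 ± 0.0575 SE, adjusted p = 4.07e-08). The bulks overlapped between the parental levels, at 17067, 16711, 16971 and 17028 in the aromatic bulk and 16884, 17118, 17176 and 16884 in the non-aromatic bulk. Their difference was -0.01 with a 95% interval of -0.13 to 0.12, so a bulk difference of the parental size lay outside the interval. The contrasts differed by -0.87 (adjusted p = 3.34e-06).

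CIPK17 was 2.16-fold lower in Pusa 1121, at 396 ± 27.2, than in Pusa 1342, at 858 ± 87.6 (SD, n = 4 each; adjusted p = 3.29e-06). It averaged 452 ± 50.9 in the aromatic bulk and 562 ± 65.3 in the non-aromatic bulk, with overlapping arrays and a log2 difference of -0.32 (adjusted p = 0.0696). The contrasts differed by -0.79 (adjusted p = 0.00238). CIPK19 was 1.35-fold lower in Pusa 1121 (log2 difference -0.44, adjusted p = 0.00671), and differed by 0.10 between the bulks, the contrasts being apart by -0.54 (adjusted p = 0.0215). CIPK32 was 1.25-fold lower in Pusa 1121 (adjusted p = 0.00108), and both bulks lay below both parents, at 2498 ± 55.7 in the aromatic bulk and 2724 ± 116 in the non-aromatic bulk, against 3585 ± 52.7 in Pusa 1121 and 4487 ± 92.3 in Pusa 1342. All 8 bulk arrays were below all 8 parental arrays for 3.4% of all genes. With its dim second probe set averaged in, CIPK32 passed neither between the parents (adjusted p = 0.322) nor in the aromatic bulk against Pusa 1121 (adjusted p = 0.146).

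CIPK7, known in rice for the response to chilling, was 1.41-fold higher in Pusa 1121, at 7138, 7351, 7089 and 6599, than in Pusa 1342, at 5920, 4409, 4716 and 5010 (adjusted p = 0.000753). The bulk difference of 0.25 did not pass (adjusted p = 0.0728), although the arrays did not overlap. Its second probe set gave another picture, being higher in the aromatic bulk by 0.53 (adjusted p = 0.000117) and lower in Pusa 1121 with a log2 difference of -0.21 (adjusted p = 0.0483). The direction of CIPK7 between the parents therefore depended on the probe set.

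The remaining 7 kinases, CIPK20, CIPK21, CIPK23, CIPK24, CIPK26, CIPK29 and CIPK30, passed in neither comparison, with log2 differences from -0.94 to 0.40 between the bulks and from -0.20 to 0.83 between the parents. CIPK24, the counterpart of Arabidopsis SOS2 and the partner of CBL4, read 1837, 1566, 1634 and 1479 in the aromatic bulk and 1698, 1788, 1652 and 1653 in the non-aromatic bulk. It read 1448, 1256, 1446 and 1635 in Pusa 1121 and 1388, 1452, 1234 and 1340 in Pusa 1342. The arrays overlapped in both comparisons, with 95% intervals of -0.27 to 0.15 between the bulks and -0.12 to 0.30 between the parents.

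CIPK23, which activates the potassium channel AKT1 together with CBL1, averaged 2437 ± 110 in the aromatic bulk and 2160 ± 116 in the non-aromatic bulk, and 2529 ± 119 in Pusa 1121 and 2486 ± 112 in Pusa 1342 (SD, n = 4 each). The bulk difference was 0.17, with an interval of 0.02 to 0.33 (adjusted p = 0.126). A dimmer probe set of the gene was 1.80-fold higher in the aromatic bulk (log2 difference 0.85, adjusted p = 2.22e-05), so its bulk result depended on the probe set, and it differed by -0.15 between the parents (adjusted p = 0.301). AKT1 itself differed by -0.21 between the bulks and 0.19 between the parents and did not pass (adjusted p = 0.198 and 0.227).

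The question whether the bulks differ as their parents do was put directly by testing the parental difference minus the bulk difference. It passed for 12 of 24 kinases, 1 higher and 11 lower, and for 3 of 7 sensors, all lower, against 33.8% of all genes (16.4% higher and 17.3% lower). For CIPK14, CIPK31 and CBL10 the bulk difference was the larger in size, for CIPK25 both were alike in size and opposite in sign, and for the other kinases and sensors the parental difference was the larger. Of the 14 kinases that passed between the parents, the aromatic bulk stood further toward the Pusa 1121 side than the non-aromatic bulk for 12, the others being CIPK19 and CIPK25. This held for neither CBL2 nor CBL4. Over all genes that passed between the parents, the bulks differed in the parental direction for 67.6%.

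Both bulk means lay between the parental means for 8 of these 14 kinases and 1 of the 2 sensors, against 38.5% of the genes that passed between the parents. On a scale from Pusa 1342 at 0% to Pusa 1121 at 100% of the log2 distance, CIPK5 lay at 52.3% in the aromatic bulk and 25.3% in the non-aromatic bulk. CIPK16 lay at 59.8% and CIPK8 at 56.6% in the aromatic bulk, against 9.27% and 10.2% in the non-aromatic bulk. CIPK11 stood at 79.1% in the aromatic bulk and 3.6% in the non-aromatic bulk, which is the widest gap among kinases whose bulks both lay between the parents. CIPK1 was at 39.6% in the aromatic bulk and 38.9% in the non-aromatic bulk. CBL4 lay outside the parental range on the Pusa 1342 side, at -77.7% in the aromatic bulk and -45.9% in the non-aromatic bulk.

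**Figure D5:**
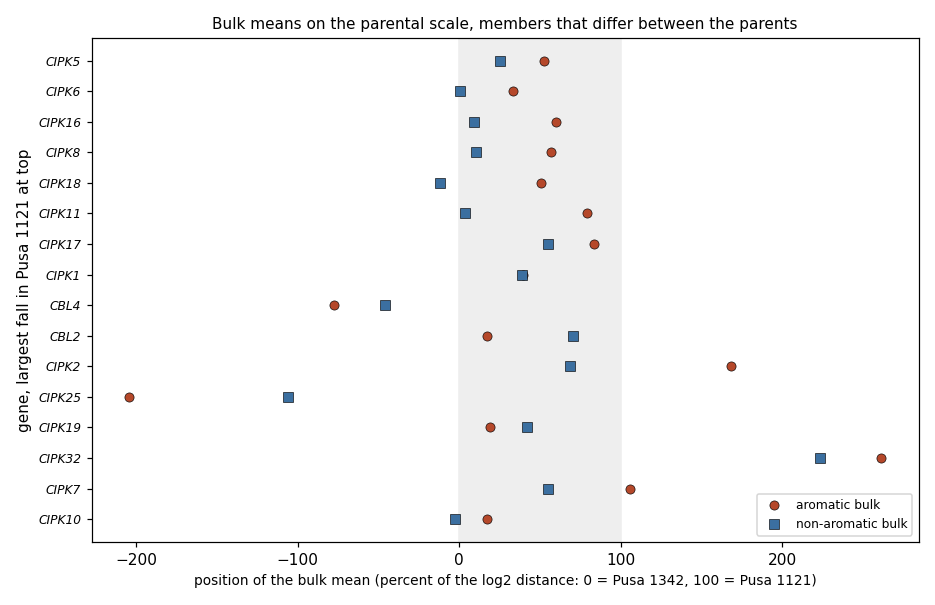
Position of the bulk means on the log2 distance between the parents, in percent (0 is Pusa 1342, 100 is Pusa 1121), for the 16 CBL and CIPK genes that passed between the parents; circles are the aromatic bulk and squares the non-aromatic bulk, and the grey band is the parental range. The circle lies further toward the Pusa 1121 side than the square for 12 of 14 kinases, and the markers of CIPK1 nearly coincide at 39.6% and 38.9%.

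Each bulk was also set against the parent with the same aroma. These comparisons share their arrays with those above and are not independent of them. In the aromatic bulk 11 of 24 kinases rose and 4 fell relative to Pusa 1121 (17% and 16% of all genes, 33% in all), with a median log2 difference of 0.25. The rises were led by CIPK5 at 1.88 (adjusted p = 4.32e-10), CIPK6 at 1.81 (adjusted p = 1.04e-07), CIPK25 at 1.63 and CIPK14 at 1.62, and included CIPK29 at 1.02 (adjusted p = 0.00225). CIPK10 fell by 1.24 there. The sensors CBL4 and CBL2 rose, by 1.46 (adjusted p = 7.22e-07) and 0.68 (adjusted p = 0.0187), and CBL3 and CBL6 fell, with log2 differences of -0.32 and -0.27 (adjusted p = 0.029 and 0.0302). That is 57.1% of the 7 sensors, against 62.5% of the kinases. The calls of CBL2, CBL3 and CBL6 were each lost in some of the runs without 1 array.

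In the non-aromatic bulk 4 of 24 kinases rose and 6 fell relative to Pusa 1342 (19.6% and 19.2% of all genes, 38.8% in all). That is 41.7% of the kinases, near the share of all genes. Of those kinases 0 reached 2-fold (9.43% of all genes), CIPK5 lying just under it before rounding. At an unadjusted p under 0.05, 11 of the 24 kinases passed, against 8865 of all 17905 genes. CIPK5 fell by 1.00 (adjusted p = 1.83e-07) and CIPK32 fell by 0.72 (adjusted p = 1.16e-06), while CIPK25 rose by 0.57. Without Pusa 1342 replicate 3 the count was 6 kinases in place of 10. Of the sensors CBL4 and CBL5 rose, by 0.38 and 1.86, and CBL2 and CBL10 fell, with log2 differences of -0.58 and -0.60. That is 57.1% of the 7 sensors, a larger share than that of the kinases. The CBL4, CBL5 and CBL2 calls were each lost in some of the runs without 1 array.

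Other calcium sensors and kinases were counted in the same fits. Of 26 calmodulin and calmodulin-like genes 1 rose and 10 fell in the aromatic bulk (16.5% and 16.3% of all genes). In Pusa 1121, 4 rose and 4 fell (22.4% and 22.8% of all genes). The lean toward falls in the aromatic bulk was thus not particular to the CIPK genes. In all, 42.3% passed between the bulks and 30.8% between the parents, against 32.8% and 45.3% of all genes. CML4 and CML1 were higher in Pusa 1121 by 1.95 and 1.40 on the log2 scale, and CML27 by 1.21, while their bulk differences of 0.07, 0.24 and 0.01 did not pass. Of 20 calcium-dependent protein kinases, which join a sensor and a kinase in a single protein, 3 rose and 3 fell in the aromatic bulk, and 8 rose and 2 fell in Pusa 1121. In total these shares of 30% and 50% were near those of all genes, while in Pusa 1121 rises outnumbered falls. CPK1 was higher on the aromatic side in both comparisons (0.42 and 0.94), CPK13 fell by 0.77 in the aromatic bulk and was higher in Pusa 1121 by 0.46, and CPK24 was higher in Pusa 1121 by 1.96.

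Among SnRK2 kinases of osmotic stress signalling, 1 rose and 3 fell in the aromatic bulk, and 3 rose and 5 fell in Pusa 1121, out of 10. That is 40% and 80%, against 32.8% and 45.3% of all genes. SAPK9 was higher on the aromatic side in both comparisons, by 1.80 and 2.44, SAPK4 was lower in both, with log2 differences of -0.49 and -1.15, and SAPK5 fell by 1.06 in Pusa 1121. Of 3 SnRK1 genes of energy signalling, OSK5 and SNRK1B rose in the aromatic bulk by 0.54 and 0.45, and SnRK1A fell by 0.35 in Pusa 1121. Of 27 potassium and calcium transport genes, the kind of protein that CBL and CIPK pairs act on, 4 rose and 5 fell in the aromatic bulk, and 7 rose and 6 fell in Pusa 1121. These shares of 33.3% and 48.1% were near the 32.8% and 45.3% of all genes. The calcium exchanger CAX1a was lower on the aromatic side in both comparisons, with log2 differences of -0.78 and -1.23, as was HAK22 with -1.33 and -2.04, and HAK17 was higher in both, with 0.57 and 1.95. The NADPH oxidase gene rbohB, of a family that CIPK kinases can phosphorylate, fell in both comparisons, with log2 differences of -0.79 between the bulks and -0.71 between the parents.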

How the data were processed

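Biotin-labelled leaf RNA (RNeasy extraction, per the labels' protocols) was measured on 16 Affymetrix rice arrays. GCOS 1.2 and RMA are listed in the submitters' processing notes without a role, and no source used here gives a genome build. The authors deposited linear intensities of 0.201 to 45123 for each probe set. The distribution is the same on every array, so a shift of all genes in a group would not be seen. Array number limits the precision.

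After removal of 187 controls from 57381 probe sets, limma 3.58.1 in R 4.3.3 was fitted to log2(value + 1) of the other 57194, as a model of the 4 group means (12 residual degrees of freedom, median residual SD 0.691). The bulks were compared as aromatic minus non-aromatic and the parents as Pusa 1121 minus Pusa 1342, followed by the parental minus the bulk difference and each bulk minus its parent. All p-values are two-sided and adjusted over the whole array by the Benjamini-Hochberg method. Fits were tested on simulated data with the residual spread of each probe set. Of changes of 0.5, 1 and 2 on the log2 scale, 11.9%, 25.4% and 40.9% were recovered between the bulks. Between the parents 8.96%, 26.9% and 42.4% were recovered. Few probe sets were changed there, unlike in the real data, so these shares need not hold here. A gene that did not pass may still differ.

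Genes were named from the platform annotation and the gene table of assembly ASM3414082v1 (taken for naming and neighbours, with no coordinates): 22436 probe sets had 1 gene, 95 several and 34663 none listed here. Members and lists were chosen with earlier results of these data known. Named were all CBL genes, CIPK genes that passed between the bulks, the parents or these contrasts, CIPK15, CIPK23, CIPK24 and CIPK31 in any case, and up to 3 passing genes per further list; AKT1, the members without a call and the marker genes were named outside that rule, after their values were seen. Alternatives were a pseudocount of 16, brighter probe sets only, probe sets averaged per gene, only the groups compared, the replicate number as a block, eBayes with trend and robust settings, array weights, each array left out, and a 2-fold minimum.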

Additional observations from a re-analysis of the deposited data

Results flagged for a closer look

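For 15 of the 31 genes the parental difference and the bulk difference were not alike in limma (adjusted p under 0.05 for the parental minus the bulk log2 difference). The kinases were CIPK5 with -2.88, CIPK6 with -1.82, CIPK14 with -1.17, CIPK25 with -1.07, CIPK16 with -0.99, CIPK1 with -0.87, CIPK17 with -0.79, CIPK8 with -0.72, CIPK19 with -0.54, CIPK31 with -0.54, CIPK18 with -0.49 and CIPK10 with 1.20. The sensors were CBL2 with -1.25, CBL4 with -1.08 and CBL10 with -0.81. CIPK14, CIPK31 and CBL10 differed more between the bulks. CIPK25 differed by 0.53 between the bulks and -0.54 between the parents, equal sizes in opposite directions, and passed in both. The remaining genes differed more between the parents.

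In 5 of 104 groups of 4 arrays 1 array stood apart from the other 3, where chance gives about 1 in 20 groups. CBL2 read 200 on Pusa 1121 replicate 1, under the other arrays of that parent at 362, 389 and 382. CBL5 read 163 on non-aromatic bulk replicate 3, above 86.7, 86.3 and 87.8. CBL9 read 81.0 on Pusa 1121 replicate 2, above 62.9, 62.8 and 62.8. CIPK6 read 957 on aromatic bulk replicate 1, a little under 1013, 1010 and 1006, and 387 on Pusa 1121 replicate 4, above 251, 262 and 255. The CIPK6 array in Pusa 1121 was still below every aromatic bulk array.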

How the results depend on the processing

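Of the 7 kinases lower on the aromatic side in both comparisons, CIPK5, CIPK6, CIPK8, CIPK11, CIPK16 and CIPK18 kept both calls under every alternative run other than the 2-fold minimum. CIPK5 and CIPK16 met that minimum in both. Each of the kinases that kept both calls has 1 probe set, so averaging probe sets could not change its values. CIPK2, with 3 probe sets, was the only one of the 7 that averaging could change, and it lost both calls there. Between the bulks CIPK calls numbered 12, and 12 to 13 without 1 array, 16 with brighter probe sets or trend and robust settings, 10 with the bulks fitted alone and 3 at 2-fold. CBL calls there numbered 1, and 0 to 2 without 1 array, 3 with brighter probe sets, averaged probe sets or trend and robust settings, and 0 at 2-fold. At an unadjusted p under 0.05 in limma 4 of 7 passed, against 8146 of all 17905 genes. Between the parents CIPK calls numbered 14, the same in every run without 1 array, 12 with averaged probe sets (CIPK2 and CIPK32 lost), 13 with the parents fitted alone (CIPK25 lost) and 8 at 2-fold. CBL calls there numbered 2, the same in every run without 1 array, 3 with brighter probe sets and 0 at 2-fold (3 at an unadjusted p under 0.05, against 9705 of all 17905 genes). The parental minus the bulk difference gave 12 to 13 CIPK and 3 to 4 CBL calls without 1 array, and 5 and 2 at 2-fold (2323 of all 17905 genes).

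Against the parents, the aromatic bulk had 14 to 15 CIPK and 2 to 4 CBL calls without 1 array, 6 and 1 at 2-fold (1401 of all 17905 genes), and 1 CBL call with these groups fitted alone. The non-aromatic bulk had 6 to 10 CIPK and 2 to 4 CBL calls without 1 array, 0 and 1 at 2-fold, and 2 CBL calls with these groups alone. With averaged probe sets CIPK2 turned to 0.46 for the aromatic bulk and 0.27 for the non-aromatic bulk, each against its parent, CIPK7 to -0.25 for the parental minus the bulk difference and -0.23 for the non-aromatic bulk against its parent, and CIPK23 to 0.22 for the aromatic bulk against its parent, since their probe sets differ. Fewer tests, fewer arrays or a stricter limit follow from the alternatives' own construction, and the cause of single changes was not tested.

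Replicate numbers did not pair the arrays: deviations of same-numbered arrays correlated at -0.0254 to 0.0335 over 24 pairs. With the replicate block CBL10 was lost between the bulks (0 CBL calls, adjusted p = 0.0507), against 12 CIPK calls there, and 14 and 2 between the parents. It also ended the calls of CBL2 in the non-aromatic bulk (adjusted p = 0.0634), and of CBL6 (adjusted p = 0.0693) and CIPK19 (adjusted p = 0.0683) in the aromatic bulk, each against its parent. Dim genes such as CBL5, CBL9, CIPK20 and CIPK30 allowed only wide intervals.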
